A study of Mus musculus with 27 samples.

Results

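Complex I of the mitochondrial respiratory chain was followed through the nuclear genes that encode its subunits and assembly factors. Members were the genes whose symbol in the platform annotation starts with Ndufa, Ndufb, Ndufc, Ndufs or Ndufv, taken from probesets with a single symbol and a mean log2 value of at least 6 over 27 arrays, with the brightest probeset per gene. This gave 43 members of the 13989 genes tested, from 48 probesets, none of which lay under the threshold. They divide into 10 genes of the NADH-oxidizing N module, 5 of the ubiquinone-reducing Q module, 9 of the proximal and 10 of the distal membrane arm, 7 assembly factors of the Ndufaf series, and Ndufa4 and Ndufa4l2, which are assigned to complex IV today. The members with the lowest means were Ndufa4l2 (6.85), Ndufaf5 (7.31) and Ndufb2 (7.52), and no member lay just outside the threshold.

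The arrays measured RNA of undifferentiated mouse embryonic stem (ES) cells after transfection of small interfering RNA (siRNA). The acetyltransferase MOF (gene symbol Kat8) acts on histone H4 in the MSL complex, of which MSL1 is a scaffold, and in the NSL complex. Whether the label NSL1 means the NSL subunit Kansl1 or Nsl1, a kinetochore gene, is not stated. The female line PGK12.1 derives from a cross of 129 with (129 x PGK)F1. It had 3 MOF arrays with 3 controls (experiments 1 to 3). The same line had 5 control arrays (experiments A to E) for 3 MSL1 arrays (A to C), 3 NSL1 arrays (C to E) and 2 arrays with MOF and MSL1 targeted together (D and E). Male WD44 cells and male E14 cells each had 2 MOF arrays and 2 controls (experiments 1 and 2). All cells had been grown on embryonic fibroblast feeders, which were removed on gelatin before transfection, and all controls carried a negative control siRNA. Cells received 100 pmol of siRNA for 48 h. In PGK12.1 experiments 1 and 2, MOF and control cells alike were transfected again with 400 pmol and kept for 24 h more. Cells targeted for both genes received 50 pmol of Msl1 siRNA besides the MOF siRNA. Each line is 1 cell line, so the replicates are separate transfections of it.

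Complex I takes electrons from NADH, passes them along iron-sulfur clusters to ubiquinone and pumps protons across the inner mitochondrial membrane. Its matrix arm holds the N module, where NADH is oxidized on the flavin of Ndufv1, and the Q module, where ubiquinone is reduced, while the membrane arm carries the proton channels. Most subunits are encoded in the nucleus, the hydrophobic core of the membrane arm is encoded in mitochondrial DNA, and dedicated assembly factors join the modules. ES cells draw much of their energy from glycolysis but keep an active respiratory chain.

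The windows around the transcription start of 5 members are shown because the results turn on these genes. Ndufa9, Ndufv1 and Ndufaf7 had the lowest fitted changes with NSL1 siRNA, Ndufs4 the lowest with MOF siRNA, and Ndufs7 did not pass the test in PGK12.1 cells. Each window holds 250 bases before and 50 after the start, 5′ to 3′ on the gene's strand, from RefSeq on GRCm38.p6. Ndufa9 lies at chr6:126849095-126849394 (minus strand), Ndufv1 at chr19:4012706-4013005 (minus), Ndufaf7 at chr17:78936885-78937184 (plus), Ndufs4 at chr13:114388045-114388344 (minus) and Ndufs7 at chr10:80249199-80249498 (plus). Capitals mark a match to the YY1 motif AAGATGG or the SP1 motif GGGCGG.
Ndufa9: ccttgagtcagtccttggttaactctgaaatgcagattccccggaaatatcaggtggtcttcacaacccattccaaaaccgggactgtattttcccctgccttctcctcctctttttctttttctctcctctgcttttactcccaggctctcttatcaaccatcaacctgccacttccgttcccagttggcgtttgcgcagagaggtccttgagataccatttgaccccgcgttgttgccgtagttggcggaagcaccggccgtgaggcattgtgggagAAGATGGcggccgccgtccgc
Ndufv1: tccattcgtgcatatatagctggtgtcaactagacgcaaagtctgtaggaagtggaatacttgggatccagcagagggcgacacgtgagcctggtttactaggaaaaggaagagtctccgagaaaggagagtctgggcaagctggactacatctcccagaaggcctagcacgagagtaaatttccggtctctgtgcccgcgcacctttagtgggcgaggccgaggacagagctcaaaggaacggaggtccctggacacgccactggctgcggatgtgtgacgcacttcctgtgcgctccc
Ndufaf7: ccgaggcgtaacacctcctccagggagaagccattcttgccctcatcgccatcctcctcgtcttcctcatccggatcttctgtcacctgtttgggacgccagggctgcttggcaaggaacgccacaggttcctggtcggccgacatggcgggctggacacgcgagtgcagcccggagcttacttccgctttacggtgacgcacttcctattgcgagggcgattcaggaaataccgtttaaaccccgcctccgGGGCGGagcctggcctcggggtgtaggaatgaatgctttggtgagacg
Ndufs4: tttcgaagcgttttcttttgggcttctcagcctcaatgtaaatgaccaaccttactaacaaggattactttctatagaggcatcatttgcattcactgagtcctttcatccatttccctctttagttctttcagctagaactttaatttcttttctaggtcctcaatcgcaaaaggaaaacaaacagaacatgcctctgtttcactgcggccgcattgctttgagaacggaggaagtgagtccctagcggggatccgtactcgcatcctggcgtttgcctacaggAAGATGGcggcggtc
Ndufs7: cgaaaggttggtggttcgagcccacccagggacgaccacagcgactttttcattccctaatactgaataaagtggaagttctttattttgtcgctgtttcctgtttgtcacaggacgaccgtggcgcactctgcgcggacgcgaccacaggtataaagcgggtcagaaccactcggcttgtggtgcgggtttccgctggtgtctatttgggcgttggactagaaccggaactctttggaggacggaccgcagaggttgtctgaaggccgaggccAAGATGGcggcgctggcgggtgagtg

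RefSeq windows were found for 38 of the 43 members, and 4 motifs were searched on both strands. The YY1 motif matched in 7 members (18.4%), against 6.48% of all 27025 windows and 7.02% of those of genes tested. Its matches in Ndufa9, Ndufs4 and Ndufs7 begin 25 to 36 bases after the start, and Ndufs7 was called with neither NSL1 nor MOF siRNA in PGK12.1. The NRF1 motif GCATGCG matched in 5 members (13.2%, against 3.64% of all windows and 6.18% of those of genes tested). The ETS motif CCGGAAG also matched in 5 (13.2%, against 9.12% and 16.4%), and GGGCGG in 19 (50%, against 35.9% and 62.9%). Of the 16 members with a window that were lower with NSL1 siRNA, 4 held the YY1 motif, as did 3 of the other 22. A match describes letters in the window and is no measured binding site.

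The targeted genes were read first. Kat8 fell by 1.22 on the log2 scale after MOF siRNA in PGK12.1, by 0.84 in WD44, by 0.68 in E14 and by 0.87 in the cells targeted for both genes, where Msl1 fell by 0.46. Msl1 fell by 0.97 after MSL1 siRNA. In the arrays labelled NSL1, probeset 10391990 of Kansl1 stood at -0.24 (adjusted p = 0.000874), the other Kansl1 probeset, 10392010, at 0.50 (adjusted p = 0.00648), and Nsl1 at 0.16 (adjusted p = 0.0502). Msl1 was higher in the NSL1 arrays by 0.45 (adjusted p = 6.43e-05). Probeset 10392010 was also higher after MOF siRNA in PGK12.1 (0.50, adjusted p = 0.0148) and WD44 (0.745, adjusted p = 0.0121), and was not called in the other comparisons. Probeset 10391990 was higher after MOF siRNA in PGK12.1 (0.22, adjusted p = 0.00449). With 1 Kansl1 probeset lower and the other higher in the NSL1 arrays, these values did not settle which gene was targeted. Directions given for NSL1 arrays rest on the label. All 10 ES cell markers had a mean of at least 6 in every group. Of 12 markers of feeder fibroblasts 11 reached that mean in the WD44 groups, 7 in the E14 groups and 6 to 8 in the PGK12.1 groups. These counts use 1 cutoff on arrays of differing scale, so they cannot be compared between lines. Lum stayed under 6 in every group. The median log2 value of an array lay between 6.22 and 7.96 and differed in steps between sets, so levels are compared only between arrays of 1 experiment or set, and never between genes.

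All fitted changes come from 1 limma model over the 27 arrays with the experiment as a block. Calls were made where the Benjamini-Hochberg adjusted p over all probesets tested was under 0.05. Shares of all genes called belong to this fit, and member counts under other settings are given without such a share. The block was taken because the labels give each knockdown array a control of its own experiment. The fitted change can depart from the mean of the per-experiment differences where an experiment holds several knockdowns.

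NSL1 siRNA in PGK12.1 went with lower levels of many complex I genes. Of 43 members 19 were lower and 3 higher, or 44.2% lower and 6.98% higher, where 22.4% of all genes tested were lower and 18.8% higher. The median change of the members was -0.14, against -0.01 over all genes. Lower in all 3 experiments were 26 members (60.5%, against 32.2% of all genes), and the members' median was -0.07 in experiment C, -0.14 in D and -0.19 in E. With no replicate block the fit called 10 lower and 2 higher, all 12 of them among the 22. In that fit the members' median was -0.12 and that of all genes -0.08, so the gap between them was smaller. Leaving out 1 array in turn gave 14 to 22 calls, with 14 (12 lower, 2 higher) when control E was left out. Experiments D and E alone gave 19 lower and 2 higher, 18 of them among the 22. The shares of all genes under these settings are not given here, so these counts do not show whether the excess of lower members held.

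**Figure D1:**
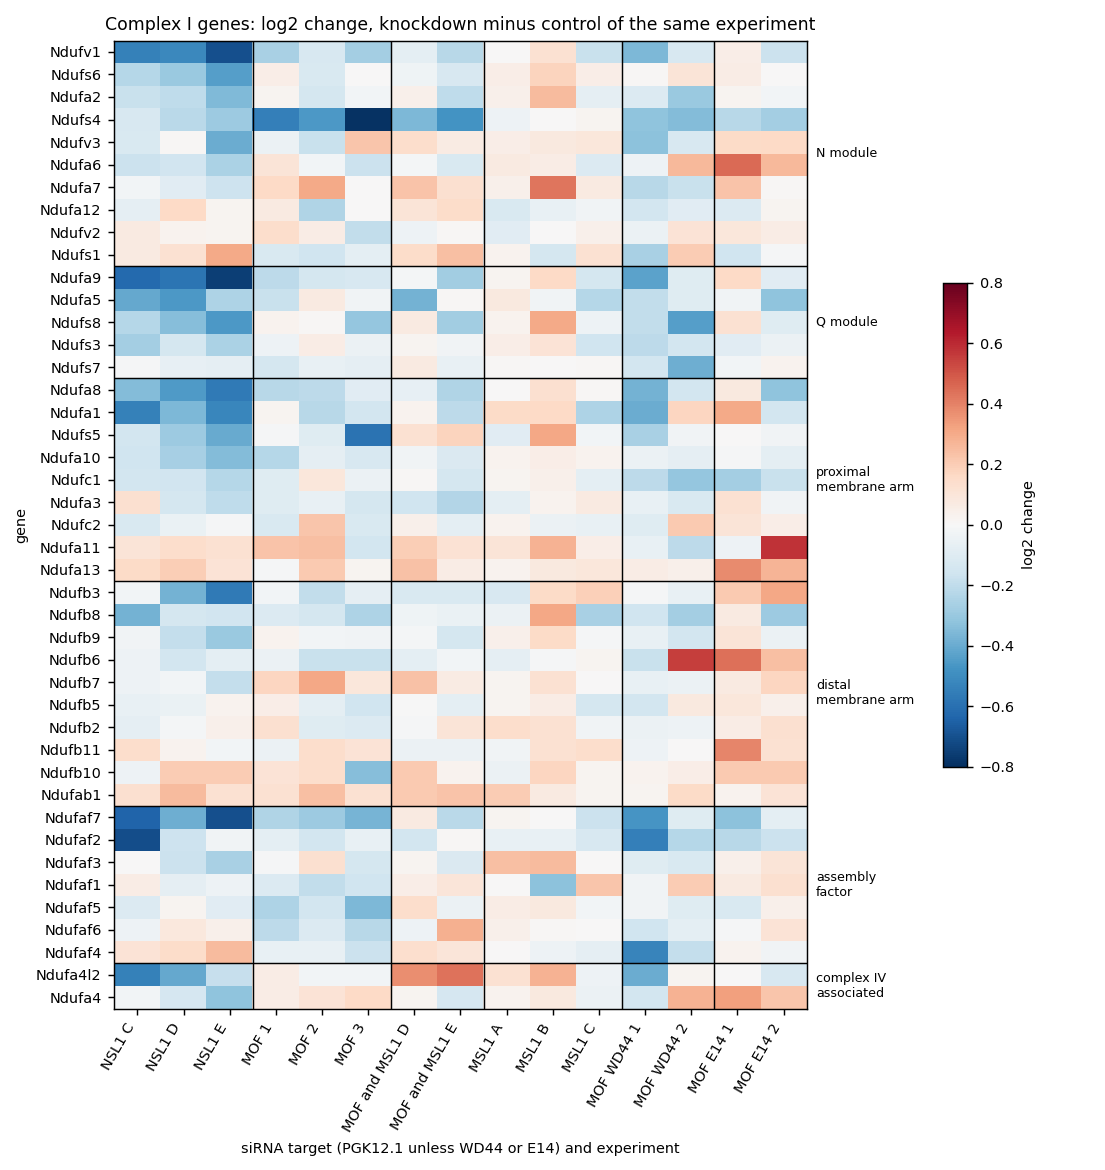
Log2 change of each of the 43 members (rows, ordered by role and then by fitted change with NSL1 siRNA) in each knockdown array against the control of the same experiment (columns). Blue is lower and red higher than control. The 3 NSL1 columns are blue for Ndufv1, Ndufa9, Ndufa8, Ndufa1 and Ndufaf7, and Ndufs4 is blue in every column in which MOF was targeted.

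Within the N module 5 of 10 members were lower with NSL1 siRNA (50%, against 22.4% of all genes) and none was higher. Ndufv1, the subunit that binds flavin and oxidizes NADH, read 11.28, 11.23 and 11.27 in controls C, D and E and 10.74, 10.71 and 10.57 in the NSL1 arrays. Every NSL1 array was below every control. The fitted change was -0.55 (SE 0.07, adjusted p = 1.04e-05), which leaves 68.1% of the control level. Ndufs6, a zinc-binding accessory subunit, read 10.52, 10.63 and 10.60 in the controls and 10.29, 10.34 and 10.15 in the NSL1 arrays, again with no overlap, and changed by -0.31 (SE 0.05, adjusted p = 0.000223). Ndufa2 (-0.21), Ndufs4 (-0.21) and Ndufa6 (-0.17, adjusted p = 0.0498) were lower by less. With 1 array left out the call of Ndufa2 was kept in 3 of 6 fits and that of Ndufa6 in none. Ndufs1, the largest iron-sulfur subunit of the complex, stood at 0.14, and Ndufv2, the partner of Ndufv1 in the flavin-containing heterodimer, at 0.03, and neither passed the test. The NSL1 and control arrays of both overlapped.

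The Q module, which lies between the N module and the membrane, had 4 of 5 members lower (80%, against 22.4% of all genes). Ndufa9, an accessory subunit at the junction of the matrix arm with the membrane arm, read 11.17, 11.20 and 11.20 in controls C to E and 10.55, 10.61 and 10.45 in the NSL1 arrays. The groups were far apart, and no other member had a lower fitted change with NSL1 siRNA. That change was -0.62 (SE 0.07, adjusted p = 7.49e-06), or 64.9% of control. Ndufa5, another accessory subunit, read 8.23, 8.09 and 7.89 against 7.82, 7.63 and 7.64 and changed by -0.34 (SE 0.08, adjusted p = 0.00191), with the lowest control just above the highest NSL1 array. The core iron-sulfur subunit Ndufs8 (-0.31, adjusted p = 0.00973) and the core subunit Ndufs3 (-0.19, adjusted p = 0.00656) were lower too. Without control E, Ndufs8 stood at -0.22 (adjusted p = 0.093), and without the NSL1 array of experiment D at -0.26 (adjusted p = 0.065). Ndufs7, which carries the iron-sulfur cluster next to ubiquinone, read 12.45, 12.44 and 12.48 in the controls and 12.44, 12.38 and 12.41 in the NSL1 arrays. The highest NSL1 array and the lowest control were equal to 2 decimals, and its change of -0.05 (SE 0.05, adjusted p = 0.483) did not pass the test.

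Of 9 members of the proximal membrane arm 5 were lower (55.6%) and 1 was higher (11.1%), against 22.4% and 18.8% of all genes. Ndufa8, a cysteine-rich subunit facing the intermembrane space, read 10.73 in each of the controls C, D and E and 10.38, 10.28 and 10.17 in the NSL1 arrays. The groups did not overlap, and the change was -0.44 (SE 0.07, adjusted p = 0.000129). Ndufa1, a small membrane subunit encoded on the X chromosome, read 9.48, 9.19 and 9.17 in the controls and 8.94, 8.83 and 8.65 in the NSL1 arrays, all of them lower. It changed by -0.43 (SE 0.10, adjusted p = 0.00345). Ndufa10, a matrix-facing subunit with a nucleoside kinase fold, changed by -0.25 (SE 0.05, adjusted p = 0.000565), Ndufs5 by -0.26 and Ndufc1 by -0.16. The call of Ndufc1 was kept in 3 of 6 fits with 1 array left out, and the call of Ndufs5 (adjusted p = 0.0447) was kept in 1 of 6 fits with 1 array left out. Ndufa13, also known as GRIM-19, was higher by 0.15 (SE 0.05, adjusted p = 0.0288), which was kept in 1 of those 6 fits.

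The distal membrane arm had 2 of 10 members lower (20%) and 1 higher (10%), where 22.4% of all genes were lower and 18.8% higher. Ndufb3, a small single-span subunit, read 8.01, 8.03 and 7.83 in controls C to E and 7.99, 7.65 and 7.26 in the NSL1 arrays. The C array hardly differed from its control while D and E were clearly below theirs, and the groups overlapped. The fitted change was -0.32 (SE 0.08, adjusted p = 0.00362). Ndufb9, which belongs to the LYR family, changed by -0.15 (adjusted p = 0.0473), a call kept in 1 of 6 fits with 1 array left out. Ndufab1, the mitochondrial acyl carrier protein, was higher by 0.18 (SE 0.05, adjusted p = 0.0092), whereas its other probeset stood at 0.11 (adjusted p = 0.0786), and the call was kept in 4 of the 6 fits. The remaining 7 members did not pass the test.

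Among the 7 assembly factors of the Ndufaf series 2 were lower (28.6%) and 1 was higher (14.3%). These shares are near the 22.4% lower and 18.8% higher of all genes. Ndufaf7, a methyltransferase that modifies a core subunit of the Q module early in assembly, read 7.40, 7.08 and 7.16 in controls C to E and 6.76, 6.68 and 6.46 in the NSL1 arrays. All NSL1 arrays were below all controls. It changed by -0.56 (SE 0.07, adjusted p = 2.36e-05), or 67.8% of control. Ndufaf2, a chaperone of the late stages of assembly, read 7.89, 7.99 and 7.73 in the controls and 7.18, 7.82 and 7.71 in the NSL1 arrays. Its fall lay mainly in experiment C, and the groups overlapped. The change of -0.32 (SE 0.09, adjusted p = 0.0117) was -0.10 (adjusted p = 0.311) without the NSL1 array of experiment C and -0.23 (adjusted p = 0.0518) without control C. Ndufaf4, an early assembly factor, was higher by 0.17 (SE 0.06, adjusted p = 0.0234), a call kept in 3 of 6 fits with 1 array left out.

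**Figure D2:**
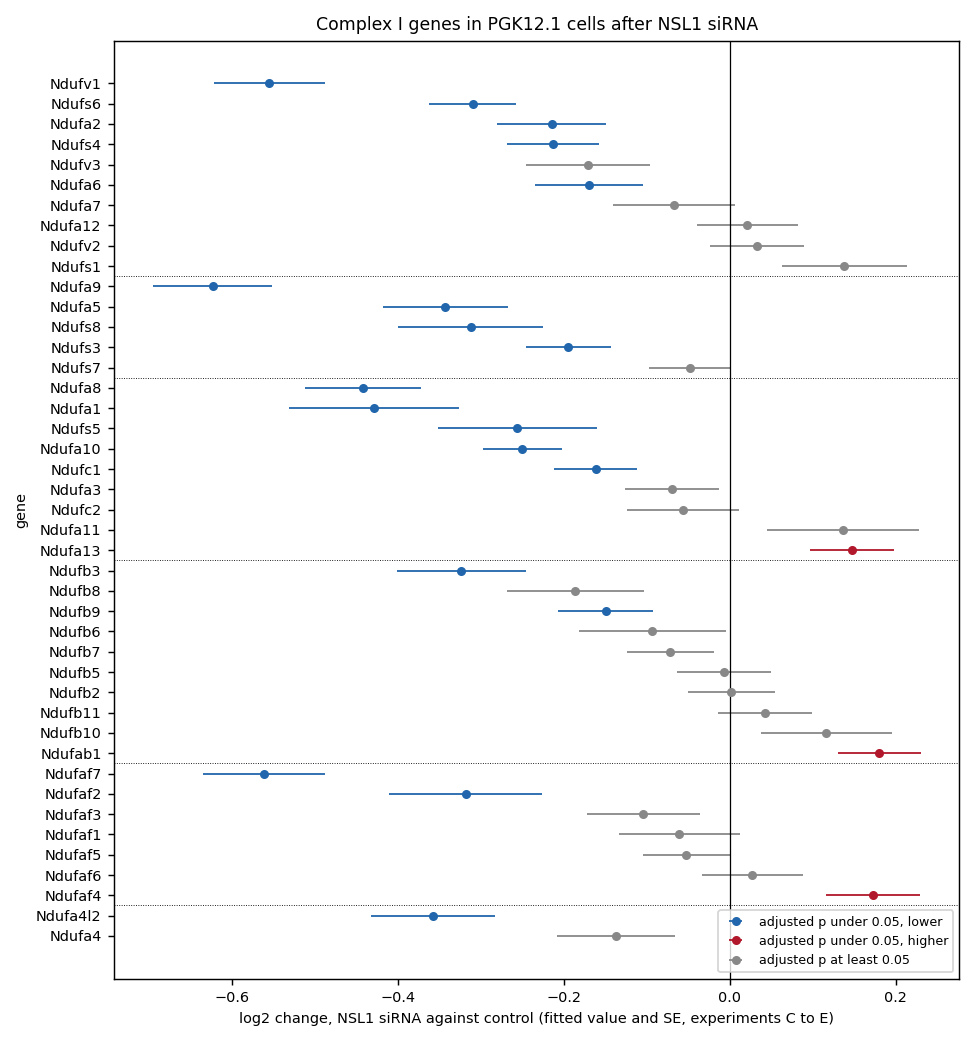
Fitted log2 change of each member in PGK12.1 cells with NSL1 siRNA against control (horizontal axis), with bars of 1 SE, ordered by role and separated by dotted lines in the order of the heat map. Blue points are the 19 lower and red points the 3 higher members at an adjusted p under 0.05; the lowest is Ndufa9 at -0.62.

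Of the members assigned to complex IV, Ndufa4l2, a hypoxia-induced relative of Ndufa4, read 7.29, 6.57 and 6.54 in controls C to E and 6.75, 6.16 and 6.35 in the NSL1 arrays. Each NSL1 array was below its own control, but the groups overlapped because experiment C read higher in both arrays. The change was -0.36 (SE 0.07, adjusted p = 0.00126), and with no replicate block -0.34 (adjusted p = 0.103). Ndufa4 stood at -0.14 and did not pass the test. Of the 22 calls with NSL1 siRNA, those of Ndufa9, Ndufv1, Ndufaf7, Ndufa8, Ndufa5, Ndufa1 and Ndufs6 were kept under each of the 10 alternatives run and with any 1 of the 6 arrays left out. Marker lists moved in these arrays as well. Of 8 feeder fibroblast markers tested 3 were lower (Loxl1 -0.42, Pdgfrb -0.34, Thy1 -0.23), and the summed level of the list was 9.73 to 10.32 on the log2 scale against 9.85 to 10.32 in controls A to E. Of 10 ES cell markers Utf1 (-0.25) and Tdgf1 (-0.19) were lower, with summed levels of 15.30 to 15.33 against 15.36 to 15.41. Of 6 primitive endoderm markers Dab2 (0.45) and Gata6 (0.37) were higher, with summed levels of 9.14 to 9.49 against 8.95 to 9.45, and of 5 trophectoderm markers Eomes (0.52) and Gata3 (0.33) were higher and Tfap2c (-0.14) was lower, with summed levels of 10.56 to 10.76 against 10.44 to 10.71. The summed levels are ranges over the arrays of a group and are not paired by experiment, and controls A and B had no NSL1 array. The part of these marker shifts in the result was not tested. In bulk RNA, fewer cells of a type and less RNA per cell cannot be told apart.

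Among complex I genes outside the naming rule, 7 of 11 assembly factors with other names were lower in the NSL1 arrays and none was higher, or 63.6% lower against 22.4% of all genes, with a median of -0.27. Ecsit, a factor of the membrane arm assembly complex, changed by -0.71 (SE 0.08), Dmac2, the distal membrane-arm assembly factor, by -0.69 (SE 0.06), Tmem70, which also serves ATP synthase assembly, by -0.43 and the oxidoreductase Foxred1 by -0.31. Of 38 nuclear genes of complexes II to V 3 were lower and 1 was higher, or 7.89% lower, well under the 22.4% of all genes, with a median of -0.05. These were Sdhb of complex II (-0.35), the Rieske protein Uqcrfs1 of complex III (-0.28) and Cox4i1 of complex IV (-0.17), while Atp5k of ATP synthase was higher (0.21). ND3, the only mitochondrially encoded complex I gene with a tested probeset, stood at 0.00 and did not pass the test. These lists were chosen with earlier results of these data known.

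With MOF siRNA in PGK12.1 fewer members were called. Of 43 members 6 were lower and 2 were higher, or 14.0% lower and 4.65% higher, close to the 14.6% lower and 9.84% higher among all genes. The median change was -0.06, with 0.00 over all genes, and 18 members were lower in all 3 experiments (41.9%, against 26.5% of all genes). Centring each array on its median gave 6 lower and none higher. With no replicate block Ndufs4 was lower and Ndufb7 higher, and leaving out any 1 of the 6 arrays (controls 1 to 3 or MOF arrays 1 to 3) gave 3 or 4 calls, 3 of them among the 8. Among marker genes Utf1 (-0.25), Tdgf1 (-0.17) and Nanog (-0.14) of the 10 ES cell markers were lower, with summed levels of 14.96 to 15.69 against 15.04 to 15.77 in the controls, and Gata3 (0.28) and Tfap2c (0.16) of the 5 trophectoderm markers were higher, with 9.92 to 10.55 against 9.78 to 10.39. These ranges are not paired by experiment and include the steps between experiments. The part of these marker shifts in the result was not tested.

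Ndufs4, an accessory subunit that completes the N module and is mutated in inherited complex I deficiency, had the clearest change. It read 9.20, 9.38 and 10.34 in controls 1 to 3 and 8.65, 8.92 and 9.55 in the MOF arrays. Each MOF array was well below its control, and the groups overlap only because both arrays of experiment 3 read higher than those of experiments 1 and 2. The change was -0.60 (SE 0.06, adjusted p = 1.04e-05), which leaves 66.0% of control, and was called under each alternative run and with each of the 6 arrays left out. Ndufs4 was also lower in the 3 other comparisons in which MOF was targeted. With MOF and MSL1 siRNA it read 11.60 and 11.53 against 11.95 and 12.01 in controls D and E, a change of -0.39 (SE 0.07, adjusted p = 0.00407). In WD44 it read 11.83 and 11.86 against 12.15 and 12.21 (-0.34, SE 0.07, adjusted p = 0.00957), and in E14 11.38 and 11.42 against 11.60 and 11.69 (-0.25, SE 0.07, adjusted p = 0.0435). Knockdown and control arrays did not overlap in any of these. With 1 array left out the change ran from -0.35 to -0.32 in WD44 (adjusted p = 0.128 and 0.0827) and from -0.27 to -0.22 in E14 (adjusted p = 0.268 and 0.286). Without the knockdown array of experiment E the cells with both targets stood at -0.35 (adjusted p = 0.0817). With no replicate block Ndufs4 was called in none of these 3 comparisons, at -0.26 (adjusted p = 0.066) with both siRNAs, and at adjusted p = 0.164 in WD44 and 0.384 in E14.

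The difference of the MOF effect on Ndufs4 between lines did not pass the test. It was -0.36 between PGK12.1 and E14 (SE 0.09, adjusted p = 0.0507), -0.27 between PGK12.1 and WD44 (SE 0.09, adjusted p = 0.139) and -0.09 between WD44 and E14 (SE 0.10, adjusted p = 0.698). MSL1 siRNA alone left Ndufs4 at 11.66, 11.70 and 11.80, against 11.70, 11.70 and 11.78 in controls A to C, a change of -0.02 (SE 0.06, adjusted p = 0.979). With NSL1 siRNA it read 11.65, 11.74 and 11.72 against 11.78, 11.95 and 12.01 in controls C to E. The groups were close but did not overlap, and the change was -0.21 (SE 0.06, adjusted p = 0.00608), or -0.17 without control E (adjusted p = 0.0513) and -0.13 with no replicate block (adjusted p = 0.256).

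**Figure D3:**
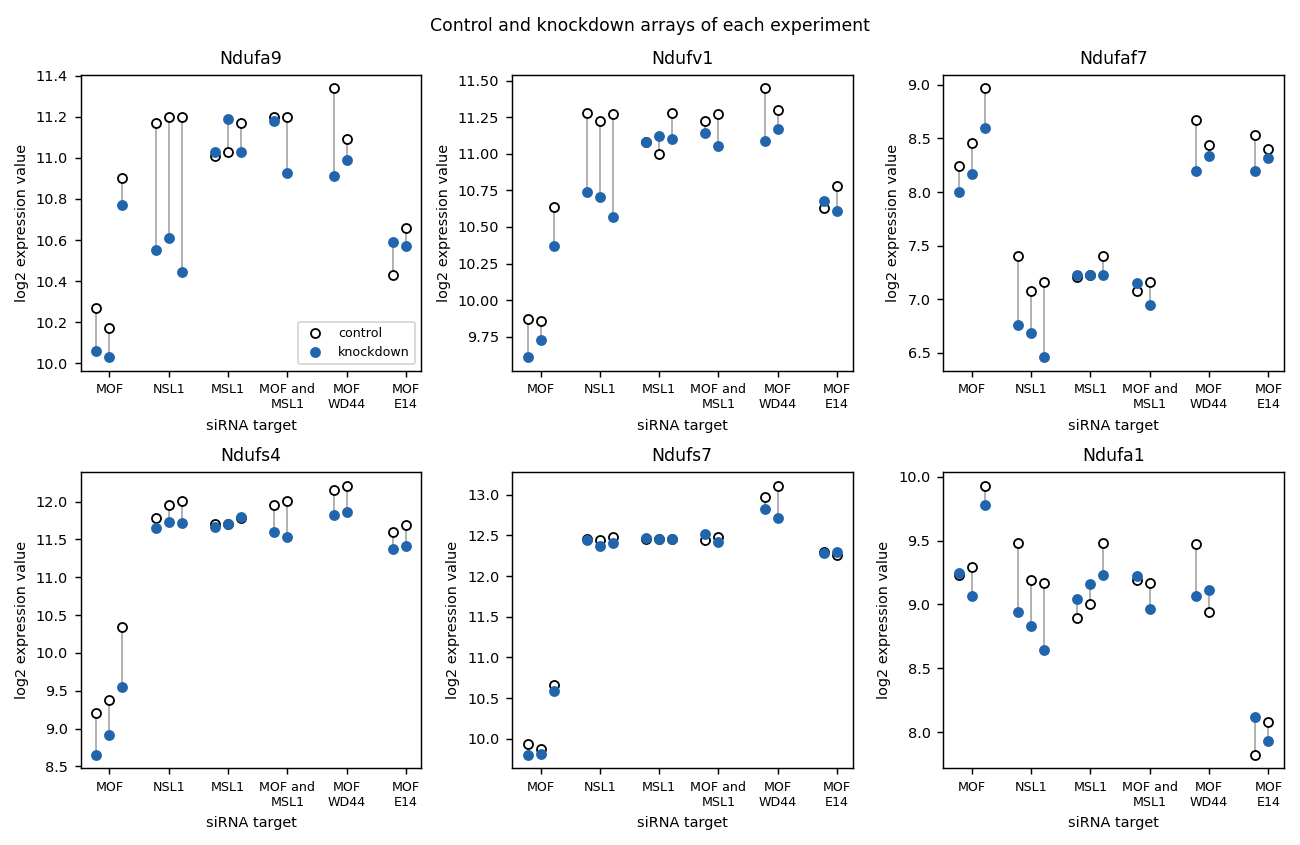
Log2 expression values (vertical axes, a scale of its own for each gene) of 6 members in every control (open circles) and knockdown array (filled circles), joined by a line within an experiment and ordered by siRNA target (PGK12.1 unless WD44 or E14 is named). Control arrays C, D and E appear once for each target they served. Ndufa9, Ndufv1 and Ndufaf7 drop in the 3 NSL1 experiments, Ndufs4 drops wherever MOF was targeted, and Ndufs7 stays near its controls with NSL1 siRNA.

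Of the other members called with MOF siRNA in PGK12.1, 3 were assembly factors. Ndufaf7 read 8.24, 8.46 and 8.97 in controls 1 to 3 and 8.00, 8.17 and 8.60 in the MOF arrays, below its control each time, and changed by -0.30 (SE 0.08, adjusted p = 0.0103). Without either array of experiment 3 it stood at -0.27 (adjusted p = 0.0755). Ndufaf5, a hydroxylase that modifies Ndufs7, read 6.12, 6.31 and 7.18 in the controls and 5.87, 6.16 and 6.82 in the MOF arrays. Every MOF array was lower than its own control, and the change of -0.25 (SE 0.05, adjusted p = 0.00362) was called with each array left out, but not with no replicate block (adjusted p = 0.111). Ndufaf6 changed by -0.18 (adjusted p = 0.0497), Ndufv1 by -0.22 (adjusted p = 0.031) and Ndufa10 by -0.14 (adjusted p = 0.0446), and each of these lost its call whichever array was left out. Ndufb7, a subunit on the intermembrane-space side of the distal arm, was higher by 0.19 (SE 0.05, adjusted p = 0.0195) and Ndufab1 by 0.16 (adjusted p = 0.0359), calls kept in 2 and 0 of 6 fits with 1 array left out. By role, 3 of 7 assembly factors (42.9%), 2 of 10 N module (20%) and 1 of 9 proximal arm members (11.1%) were lower. The share of all genes lower was 14.6%. Both higher members belong to the distal arm, 20% of it, against 9.84% of all genes. None of 5 Q module members was called. Ndufa9 stood at -0.16 (adjusted p = 0.137).

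Both PGK12.1 comparisons could be set side by side because they share no control array. Of the 19 members lower with NSL1 siRNA, 4 (Ndufa10, Ndufaf7, Ndufs4 and Ndufv1) were also lower with MOF siRNA, which is 21.1% of the 19 and 66.7% of the 6. Over all genes the same shares were 41.3% and 63.3%. Across the 43 members the fitted changes correlated at r = 0.41, and across all genes at 0.58, where genes are not independent. Tested directly, the NSL1 change was below the MOF change for 5 members and above it for 2, where 8.19% of all genes were lower and 8.41% higher. Lower were Ndufa9 (difference -0.46, SE 0.10, adjusted p = 0.00846), Ndufa4l2 (-0.36), Ndufv1 (-0.33), Ndufs6 (-0.29) and Ndufb7 (-0.26). Higher were Ndufs4 (0.39, SE 0.08, adjusted p = 0.00545) and Ndufaf4 (0.27). With no replicate block Ndufa9, Ndufb7 and Ndufs4 were called. The NSL1 cells had 1 round of RNAi, as did MOF experiment 3, while MOF experiments 1 and 2 had a second one. In experiment 3 alone Ndufs4 differed from its control by -0.79 and Ndufa9 by -0.13, against -0.13 to -0.29 and -0.76 to -0.59 in the 3 NSL1 experiments. The part of the second round in the result was not tested.

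**Figure D4:**
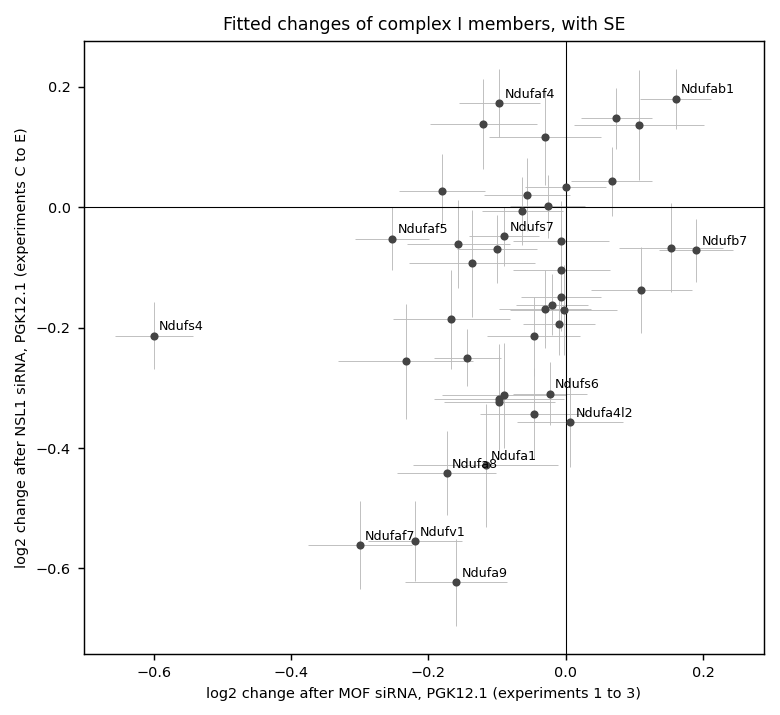
Fitted log2 change of each of the 43 members with MOF siRNA (horizontal axis, PGK12.1 experiments 1 to 3) and with NSL1 siRNA (vertical axis, experiments C to E), with bars of 1 SE. Ndufs4 lies far to the left at -0.60 and -0.21, while Ndufa9, Ndufaf7 and Ndufv1 lie lowest at -0.62, -0.56 and -0.55 on the vertical axis.

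Cells targeted for both MOF and MSL1 were treated in the same experiments D and E as a pair of NSL1 arrays. Against control 1 member was lower and 2 were higher, where 3.42% of all genes were lower and 3.51% higher. Besides Ndufs4, Ndufa4l2 read 6.94 and 6.97 against 6.57 and 6.54 in controls D and E, above both of them, with a change of 0.37 (SE 0.09, adjusted p = 0.0239). Its call was lost with any 1 of the 4 arrays left out, and with no replicate block it stood at 0.19 (adjusted p = 0.431). Ndufab1 was higher by 0.21 (adjusted p = 0.0466), a call that was likewise lost with any array left out. Centring each array on its median left 1 member higher and 1 lower.

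Set directly against these cells, the NSL1 arrays were lower for 13 members and higher for none, where 16.2% of all genes were lower and 11.5% higher. The largest differences were in Ndufa4l2 (-0.73, SE 0.09, adjusted p = 5.6e-05), Ndufa9 (-0.50, SE 0.09, adjusted p = 0.000778), Ndufaf7 (-0.48, SE 0.09, adjusted p = 0.00112), Ndufs5 (-0.45) and Ndufv1 (-0.43, SE 0.08, adjusted p = 0.00121). Ndufa9 read 10.61 and 10.45 with NSL1 siRNA and 11.18 and 10.92 with both siRNAs, so that the NSL1 arrays were the lower ones in each experiment. By role 4 of 10 N module, 2 of 5 Q module, 3 of 9 proximal arm and 2 of 10 distal arm members were lower. With no replicate block 6 of the 13 were called, among them Ndufa9, Ndufv1, Ndufaf7 and Ndufa8.

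With MSL1 siRNA none of the 43 members was called, where 0.214% of all genes were called in either direction. At an unadjusted p under 0.05, where all genes were not counted, limma counted 1 member, and the fit with no replicate block called none either. Fitted changes ran from -0.06 to 0.16 with a median of 0.02. Ndufa9 read 11.03, 11.19 and 11.03 with MSL1 siRNA and 11.01, 11.03 and 11.17 in controls A to C, with overlapping groups. The fitted change was 0.00 (SE 0.07). For Ndufv1 the change was -0.04 (SE 0.07), and for Ndufaf7 -0.05 (SE 0.07).

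In the male line WD44 with MOF siRNA, of 43 members 5 were lower and none was higher, where 8.28% of all genes were lower and 4.45% higher, and 28 were lower in both experiments (65.1%, against 38.8% of all genes). The median was -0.12, against -0.02 over all genes, with -0.15 in experiment 1 and -0.09 in experiment 2. Median centring raised the count to 11 lower and cyclic loess brought it to 3, while with no replicate block Ndufaf4 and Ndufs7 were called. The shares of all genes given here belong to the main fit. Those under the alternatives are not given, so no excess can be read from these counts. With any 1 of the 4 arrays left out 2 members were called, only 1 of them among the 5.

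Besides Ndufs4, the lower members were Ndufaf2, Ndufaf4, Ndufs7 and Ndufc1. Ndufs7 read 12.82 and 12.72 against 12.97 and 13.11 in the controls, apart from them, and changed by -0.27 (SE 0.06, adjusted p = 0.0145). Without either array of experiment 2 it stood at -0.15 (adjusted p = 0.25). Ndufaf4 read 8.92 and 9.10 against 9.45 and 9.29, with a change of -0.36 (SE 0.07, adjusted p = 0.0077) that was -0.19 (adjusted p = 0.294) without either array of experiment 1. Ndufaf2 changed by -0.39 (SE 0.12, adjusted p = 0.0405) and Ndufc1 by -0.26 (SE 0.06, adjusted p = 0.0191), and neither was called with any array left out. Ndufa9 (-0.27, adjusted p = 0.0686), Ndufv1 (-0.25, adjusted p = 0.0683) and Ndufaf7 (-0.29, adjusted p = 0.0572) were below control in both experiments and missed the threshold.

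Fibroblast markers moved in the same WD44 arrays. Of 8 feeder markers tested Col1a1 (0.38), Col5a2 (0.33), Col3a1 (0.31) and Col1a2 (0.31) were higher, the summed level of the list was 11.63 to 11.67 against 11.45 to 11.55 in the controls, and of the 12 markers Lum alone was under 6. Klf2 of the ES cell list (0.20) and Hand1 of the trophectoderm list (0.36) were higher and Dab2 of the primitive endoderm list (-0.33) was lower. Their part in the result was not tested.

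In the male line E14 the members were spread to both sides. Of 43 members 3 were higher and 2 lower, where 3.77% of all genes were higher and 4.93% lower, with a median of 0.04. Ndufa6, an N module subunit of the LYR family, changed by 0.36 (SE 0.08, adjusted p = 0.018), a call lost with any 1 of the 4 arrays left out. Ndufa13 read 10.15 and 10.29 against 9.77 and 10.02 and rose by 0.33 (SE 0.06, adjusted p = 0.00759). In both genes the MOF arrays were the higher ones without overlap. Ndufb11 was higher by 0.26 (adjusted p = 0.0407) and Ndufc1 lower by 0.23 (fitted change -0.23, adjusted p = 0.0415), beside Ndufs4. With no replicate block none of the 5 was called, and leaving out 1 array left 0 calls (experiment 1, either array) or 2 calls (Ndufa13 and Ndufb11, without either array of experiment 2). Sox2 was the only marker gene called in E14 (-0.21). Ndufa9 stood at 0.04, Ndufv1 at -0.06 and Ndufs7 at 0.01, with overlapping groups.

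Tests of the difference of the MOF effect between lines called none of the 43 members. All genes were called at 2.24% for PGK12.1 against WD44, 2.58% for PGK12.1 against E14 and 1.47% for WD44 against E14. At an unadjusted p under 0.05 limma counted 8, 9 and 8 members. All genes were not counted at that threshold, so no excess can be read from these numbers. The members' median difference was -0.15 between WD44 and E14, with 39 of 43 members below 0 (90.7%, against 53.9% of all genes, whose median was -0.02), -0.10 between PGK12.1 and E14 and 0.05 between PGK12.1 and WD44. Median centring called 2 members for PGK12.1 against E14.

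**Figure D5:**
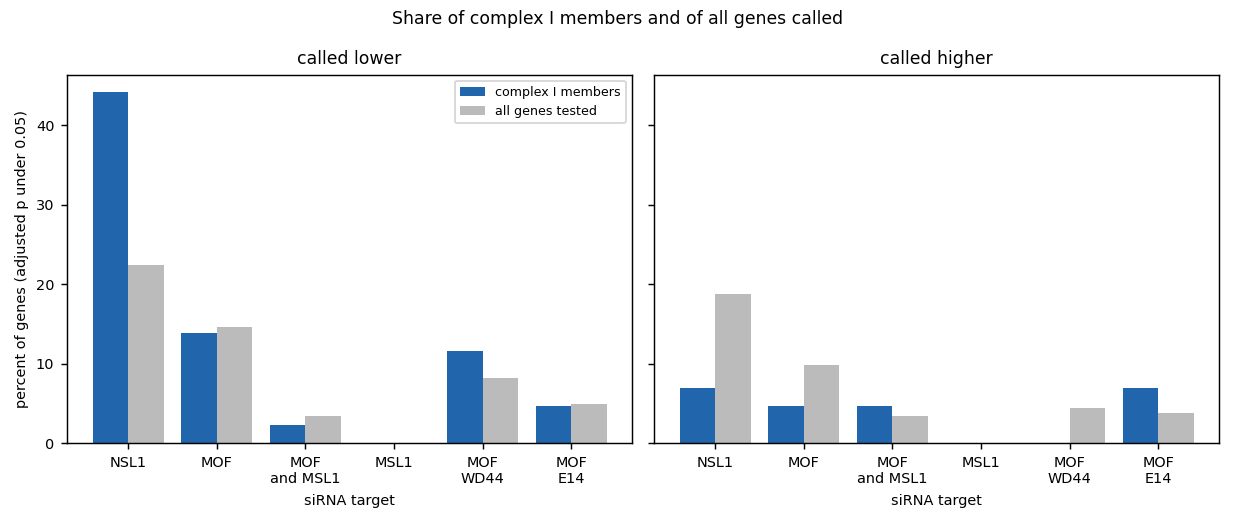
Percent of the 43 members (blue) and of all 13989 genes tested (grey) that were called lower (left) or higher (right) in each of the 6 comparisons, on axes that start at 0. For NSL1 the members stand at 44.2% lower against 22.4% of all genes; for MOF in PGK12.1 they stand at 14.0% against 14.6%.

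Ndufa1 and Ndufb11 are encoded on the X chromosome, of which PGK12.1 cells carry a pair and the male lines 1 copy. Ndufa1 was called lower with NSL1 siRNA only. With MOF siRNA it read 9.25, 9.07 and 9.78 in PGK12.1 against 9.23, 9.29 and 9.93, 9.07 and 9.11 in WD44 against 9.47 and 8.94, and 8.12 and 7.93 in E14 against 7.82 and 8.08. The groups overlapped in each line. Ndufb11 has a brighter probeset (10525471) and a second one (10603837). The platform numbers the first among probesets of chromosome 5 (10 of the 10 nearest numbers) and the second among those of the X (9 of 10), and whether the first reads another locus was not tested. With NSL1 siRNA the brighter one stood at 0.04 (adjusted p = 0.6) and the second was higher by 0.17 (SE 0.06, adjusted p = 0.0324). In E14 the brighter one was higher by 0.26 and the second stood at 0.12 (adjusted p = 0.373). Ndufa11 likewise has a brighter probeset numbered among those of chromosome 16 (7 of 10) and a second among those of chromosome 17, its own, at 0.14 and -0.05 with NSL1 siRNA, and neither was called. The second probesets of Ndufc1 and Ndufs3, both lower with NSL1 siRNA (-0.21 and -0.19), are numbered among those of chromosomes 13 (10 of 10) and 11 (9 of 10), while the genes and the probesets used lie on chromosomes 3 and 2.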

How the data were processed

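RNA of 27 samples was measured on Affymetrix arrays. The values are the log2 expression values the authors deposited for 35556 probesets. The submitters' processing notes name Expression Console of Affymetrix and the RMA method; versions and genome build are not given in the sources used here. RMA corrects background, normalizes by quantiles and summarizes probes, and the steps of the array medians show that the sets were not on 1 scale. Arrays have no read depth, so precision is limited by how many there are.

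Gene symbols came from the platform annotation (21789 with 1 symbol, 1621 with several, 12146 with none), and 21698 of the 21789 matched RefSeq genes of GRCm38.p6. Nduf probesets with several symbols (3) were left out. Probesets with a mean of at least 6 and a symbol were tested (16283), and counts over genes took the brightest probeset per gene (13989). All 27 arrays were fitted with limma 3.58.1 in R 4.3.3 (lmFit, eBayes), with 12 experiments as a block and 6 knockdown effects, which left 9 residual degrees of freedom (16 without the block). The fit with no replicate block held the 10 groups and a term for the arrays with a second round of RNAi. P-values were adjusted by Benjamini-Hochberg over the 16283 probesets. They measure the spread between these transfections, pooled over all 27 arrays and moderated over probesets. In every comparison, those in PGK12.1 included, an SE can therefore be smaller than the gene's own differences would give. Ndufaf2 with NSL1 siRNA had an SE of 0.09, while its differences ran from -0.71 to -0.03. The p-values for WD44 and E14, with 2 arrays a group, draw mostly on the spread of the other arrays.

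Pairing by experiment comes from the labels. As a check, deviations from the group means correlated within an experiment at 0.02 to 0.86, but MSL1 A (0.44 and 0.46), MSL1 B (0.03 and 0.12) and NSL1 E (0.51 and 0.63) correlated less with their own control than with another. With 2 arrays a group the check cannot tell the pairings apart in size, only in sign. The alternatives were no replicate block, median centring, cyclic loess, a filter at 7 or none, array weights, a mean-variance trend, the mean over a gene's probesets, the arrays compared alone, experiments D and E alone, and each array left out. The fit was tested on simulated data.

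Members, lists, motifs and tests were chosen with earlier results of these data known. Values in every array were given for Ndufa9, Ndufv1 and Ndufs7, the members with the smallest adjusted p and the same sign in every experiment, the X-linked members and the member with the largest NSL1 change of each role. Up to 4 genes of another list, by smallest p, were named; Ndufaf2, Ndufaf4, Ndufa6 and the genes of marker lists were named besides, after their values were seen. The lists were other complex I assembly factors, complexes II to V, mitochondrially encoded complex I, iron-sulfur cluster assembly, protein import, regulators, and markers of ES cells, feeder fibroblasts, primitive endoderm and trophectoderm.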

Additional observations from a re-analysis of the deposited data

Results flagged for a closer look

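In the group of 5 control arrays of experiments A to E, 3 of the 43 members had 1 array far from the others, with a gap to the nearest array over 0.71 of the group's whole range. Chance gives this in about 1 group in 20, so some flags are expected among 43 members. The rule takes the 5 controls as 1 group, although some members differed in a step between them. Ndufb2, for one, read 7.72 in each of controls A to C and 7.06 and 6.95 in D and E. Ndufa6 read 10.75 in control C, where the nearest control read 10.45 and the lowest 10.40, a gap of 0.847 of the range. For Ndufb3 control E read 7.83, with the nearest at 7.97 and the highest at 8.03, a gap of 0.721. Ndufb6, a subunit of the distal membrane arm, read 12.52 in control D, with the nearest at 12.37 and the lowest at 12.32, a gap of 0.73. Ndufb3 and Ndufa6 were called with NSL1 siRNA, and Ndufb3 kept that call without control E while Ndufa6 stood at -0.15 (adjusted p = 0.123) without control C.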

How the results depend on the processing

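No call of a member changed direction under any alternative run. The counts that follow are of members alone, without the share of all genes called under the same setting. With no replicate block, calls numbered 12 for NSL1 (22 with it), 2 for MOF in PGK12.1 (8), 2 for WD44 (5), 0 for E14 (5), 6 for NSL1 against MOF and MSL1 (13) and 3 for NSL1 against MOF (7); the block changed no count by over 1.5 times elsewhere. With no filter on low values they numbered 5 for MOF in PGK12.1, 2 for E14 and 3 for NSL1 against MOF, and with array weights 4 for MOF in PGK12.1, 6 for MOF and MSL1 (3) and 12 for NSL1 against MOF. With only the arrays compared they numbered 2 for MOF in PGK12.1, 0 for WD44 and 0 for E14. In WD44 median centring gave 11, cyclic loess 3 and the mean-variance trend 9. For PGK12.1 against E14, where none was called, median centring gave 2, a filter at 7 gave 2, the trend gave 3 and the mean over a gene's probesets 1. Leaving out 1 array gave 14 to 22 calls for NSL1, 3 to 4 for MOF in PGK12.1, 0 to 1 for MOF and MSL1, 2 for WD44, 0 to 2 for E14 and 0 for MSL1. Under all alternatives 7 of 22 calls with NSL1 siRNA and 1 of 8 with MOF siRNA in PGK12.1 were kept, and none with MOF and MSL1, WD44 or E14. Those kept were Ndufa10, Ndufaf7, Ndufv1, Ndufa8, Ndufa9 and Ndufb7 for NSL1 against MOF and MSL1, and Ndufs4 and Ndufa9 for NSL1 against MOF, where no array was left out. The cause was not tested.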

Other observations

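Other mitochondrial genes on which complex I depends were also read in the NSL1 arrays. Of 11 genes of mitochondrial iron-sulfur cluster assembly 4 were lower and 1 (Hscb, 0.16) was higher, or 36.4% lower where 22.4% of all genes were lower and 18.8% higher, with a median of -0.12. The cysteine desulfurase Nfs1 changed by -0.52 (SE 0.06), its partner Lyrm4 by -0.27, Bola3 by -0.35 and Isca2 by -0.19. Of 15 genes of mitochondrial protein import 7 were lower (46.7%) and 1 (Gfer, 0.15) was higher, with a median of -0.10. Tomm22, a receptor of the outer membrane translocase, changed by -0.58 (SE 0.08), the processing peptidase subunit Pmpcb by -0.40, and Timm50 and Timm44 of the inner membrane translocase by -0.38 and -0.26. Of 13 transcription and biogenesis regulators 1 was lower (7.69%) and 2 were higher. The mitochondrial RNA polymerase Polrmt changed by -0.33 (SE 0.05), the GABP subunit Gabpb1 by 0.25 and the coactivator Ppargc1b by 0.27.

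With MOF siRNA in PGK12.1 the same lists had 2 of 11, 2 of 15 and 1 of 13 genes lower (18.2%, 13.3% and 7.69%), near or under the 14.6% of all genes, and 1 gene, of the import list, higher. Isca2 changed by -0.37 (SE 0.05, adjusted p = 0.000119), Lyrm4 by -0.35 (SE 0.05), Chchd4, the oxidoreductase of the intermembrane-space import pathway, by -0.28 and its partner Gfer by 0.25. Tfb1m, the methyltransferase of mitochondrial ribosomal RNA, changed by -0.41 (SE 0.05, adjusted p = 2.99e-05). In WD44 the same lists had 1 of 11, 1 of 15 and 2 of 13 genes lower (9.09%, 6.67% and 15.4%), against 8.28% of all genes, and none higher. These were Isca2 (-0.28), Timm17b (-0.315), Tfb1m (-0.34) and Tfb2m, a transcription factor of mitochondrial DNA (-0.31). With no replicate block limma called none of them (adjusted p = 0.0734 to 0.259). Of the 11 other complex I assembly factors 3 were lower with MOF siRNA in PGK12.1 (Ecsit -0.32, Dmac2 -0.28, Dmac1 -0.20) and Tmem186 was higher (0.21). Dmac2 was lower in the cells with both targets (-0.35), and Ecsit (-0.34) and Acad9 (-0.29) in WD44. In E14 no gene of the iron-sulfur, regulator or assembly factor lists was called, and Tomm22 of the import list was higher (0.35).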
